A study of Homo sapiens with 6 samples.

Results

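This report describes 9 genes that mark the follicular lineage of the thyroid or make thyroid hormone, PAX8, NKX2-1, FOXE1, HHEX, TG, TSHR, SLC5A5, DUOX2 and DIO2, in CAL62 cells with and without erianin. They were taken from the 39168 gene identifiers of the count table by their Ensembl identifier, and where an identifier stood on several rows the row with most counts was used. CAL62 is an established, wild-type anaplastic thyroid carcinoma (ATC) cell line, and erianin is a natural small molecule from Dendrobium. Messenger RNA levels were measured by RNA sequencing in 3 libraries treated with 50 nM erianin and in 3 libraries treated with the solvent DMSO, all for 48 h. Both groups came from this 1 cell line, and the labels do not say whether the replicates were separate cultures, so p-values measure only the spread between these libraries.

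In the thyroid, a small set of transcription factors that are present together in no other organ specifies follicular cells in the embryo and keeps their genes on in the adult. PAX8, NKX2-1, FOXE1 and HHEX form this set. The follicular cell then takes up iodide through the sodium/iodide symporter SLC5A5, makes thyroglobulin (TG) as the protein scaffold, and iodinates it in a step that uses hydrogen peroxide from DUOX2. Thyrotropin (TSH), acting on its receptor TSHR, stimulates these steps, and the deiodinase DIO2 converts the prohormone T4 to the active hormone T3. ATC is the form of thyroid cancer that has lost most of this program.

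Of the 9 genes, 3 had a mean of at least 1 TPM in the DMSO libraries: PAX8, HHEX and FOXE1. TPM, a share of all transcripts, is the level after division by gene length and library total, so it allows levels of different genes to be set side by side. DUOX2 was below that level in every library but had counts in all 6, TG, SLC5A5 and DIO2 had between 1 and 19 counts over all libraries, and NKX2-1 and TSHR were listed at 0 throughout. With erianin, PAX8 fell, and none of the other 3 genes that could be tested passed the thresholds.

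The sequence just upstream of a start site is shown for the 2 abundant factors, PAX8 and HHEX, and for the 2 genes listed at 0, NKX2-1 and TSHR, so that genes at both ends of the range of listed levels can be seen. Each window runs 5′ to 3′ on the strand of the gene, from 250 bases before to 50 bases after the RefSeq start on GRCh38.p14, and the capitals mark every CG pair (letters CG, which read the same on both strands). The windows lie at chr2:113278872-113279171 on the minus strand for PAX8, chr10:92689705-92690004 on the plus strand for HHEX, chr14:36520183-36520482 on the minus strand for NKX2-1 and chr14:80955371-80955670 on the plus strand for TSHR.
PAX8: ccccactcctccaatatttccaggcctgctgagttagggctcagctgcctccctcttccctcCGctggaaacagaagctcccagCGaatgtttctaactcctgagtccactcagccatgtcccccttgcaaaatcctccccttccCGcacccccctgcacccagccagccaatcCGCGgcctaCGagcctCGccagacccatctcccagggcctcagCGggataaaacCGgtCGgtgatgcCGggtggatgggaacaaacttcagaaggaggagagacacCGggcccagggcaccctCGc
HHEX: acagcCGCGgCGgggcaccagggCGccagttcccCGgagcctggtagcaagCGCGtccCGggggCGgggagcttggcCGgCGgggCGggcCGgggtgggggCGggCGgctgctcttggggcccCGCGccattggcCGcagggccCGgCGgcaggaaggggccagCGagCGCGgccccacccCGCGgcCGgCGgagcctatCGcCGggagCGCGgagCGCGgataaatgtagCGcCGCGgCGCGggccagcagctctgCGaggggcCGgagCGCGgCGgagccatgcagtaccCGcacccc
NKX2-1: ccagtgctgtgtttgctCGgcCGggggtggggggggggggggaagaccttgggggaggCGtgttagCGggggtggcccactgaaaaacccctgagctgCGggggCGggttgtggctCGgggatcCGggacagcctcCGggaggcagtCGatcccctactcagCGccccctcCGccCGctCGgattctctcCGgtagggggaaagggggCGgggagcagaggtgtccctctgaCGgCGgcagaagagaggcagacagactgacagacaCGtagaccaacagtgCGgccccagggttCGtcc
TSHR: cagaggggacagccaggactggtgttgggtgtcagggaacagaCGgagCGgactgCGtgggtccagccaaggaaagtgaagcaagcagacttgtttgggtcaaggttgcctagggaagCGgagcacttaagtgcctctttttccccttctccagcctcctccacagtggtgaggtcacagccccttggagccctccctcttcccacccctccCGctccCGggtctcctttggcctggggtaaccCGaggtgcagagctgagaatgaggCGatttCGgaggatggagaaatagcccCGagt
The HHEX window held 44 CG pairs, more than 95.8% of the 35116 promoter windows of the same length, whose median was 14. PAX8, the gene with the higher level, held 13, NKX2-1 held 21 and TSHR held 10. A second start of NKX2-1 lies downstream, and its window at chr14:36519507-36519806, not printed here, held 11. Of PAX8 and HHEX, the gene with the higher level thus held fewer CG pairs. NKX2-1 and TSHR are listed at 0, a value with a limit described with NKX2-1, so CG pairs were not set against their levels. A window was found for 8 of the 9 genes, all but TG. FOXE1 held 32 CG pairs, DUOX2 18 and SLC5A5 12, and each of the 2 windows of DIO2 held 3. A CG pair stood in 96.0% of all windows.

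The libraries held between 25776301 and 34107727 counts on rows with an identifier. DMSO replicate 3 stood apart from the other DMSO libraries: its distance to them over all tested genes, in log2 CPM (counts scaled to a common library size, with TMM factors), was 62.9 and 64.1, against 37.2 between DMSO replicates 1 and 2 and 28.2 to 29.01 among the erianin libraries. Its TPM values summed to 59.1% of the nominal total of the unit, against 72.6% to 78.3% in the other 5 libraries. Values without it are given for PAX8, HHEX and FOXE1 and, for the other genes named, where leaving it out turned a direction or moved a gene across the adjusted p or fold threshold. Keratin genes of epithelial cells were high (KRT8 between 299.8 and 450.5 TPM), EPCAM lay between 15.7 and 23.4 TPM, and CDH1 was at or below 0.0551 TPM. Of the markers of other cell types, those of leukocytes summed to at most 0.290 TPM and those of endothelial cells to at most 0.620 TPM, the calcitonin gene CALCA of C cells and the parathyroid hormone gene PTH were listed at 0, and the fibroblast list held COL1A1 at 12.0 to 14.7 TPM with DCN listed at 0.

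**Figure D1:**
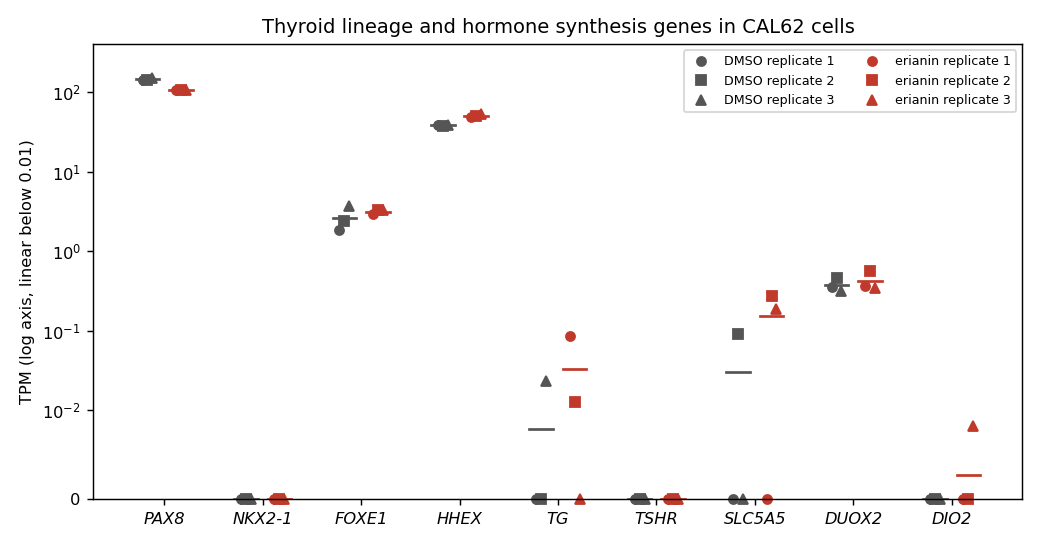
TPM of the 9 genes in each of the 6 libraries on a log axis that is linear below 0.01, with DMSO in grey, erianin in red, symbols for replicates and a bar at each group mean. PAX8 (means 145 and 105 TPM) and HHEX (38.3 and 50.4 TPM) stand above the rest, and NKX2-1 and TSHR lie at 0 in all 6 libraries.

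PAX8, the paired-box factor that binds the TG promoter, was the most abundant of the 9 genes. It lies at chr2:113215997-113278950 on the minus strand (GRCh38, GENCODE release 29, identifier ENSG00000125618). The DMSO libraries had 15705, 20853 and 23024 counts, which is 142, 143 and 149.6 TPM, and the erianin libraries had 14781, 15119 and 14680 counts, which is 106.5, 105 and 105 TPM. All 3 erianin libraries lay below all 3 DMSO libraries, and they were closer together than the DMSO libraries. The mean level was 145 ± 4.19 TPM with DMSO and 105 ± 0.918 TPM with erianin (SD, n = 3), and of the genes with a mean of at least 1 TPM in DMSO 93.4% were lower.

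Differentially expressed genes (DEGs) had to pass edgeR's quasi-likelihood test across 12821 genes at a Benjamini-Hochberg adjusted p below 0.05 and to change by more than 0.5 on the log2 scale. PAX8 was the 1 DEG among the 4 of the 9 genes that had enough counts to be tested (PAX8, FOXE1, HHEX and DUOX2), and 8.73% of all tested genes were DEGs, 5.37% with an increase and 3.36% with a decrease. Its log2 fold change of CPM was -0.66 (SE 0.08, 95% interval -0.84 to -0.47, edgeR adjusted p = 0.00403). In CPM the DMSO libraries lay at 645, 643 and 739 and the erianin libraries at 433, 433 and 419. The highest of these values was that of DMSO replicate 3, and without it the log2 fold change was -0.59 (edgeR adjusted p = 2.11e-14). Leaving this library out lowered the spread between libraries that edgeR estimated over all genes, from a coefficient of variation of 0.139 to 0.0421. It also raised the DEGs to 17.5% of all tested genes, so small adjusted p-values without this library are not particular to single genes. PAX8 remained a DEG when any 1 of the 6 libraries was left out, with log2 fold changes from -0.70 to -0.59. On the scale log2(TPM + 1) the change was -0.45 (limma adjusted p = 0.00846), short of the 0.5 threshold, while the median of all genes on that scale was shifted by 0.18.

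HHEX, a homeobox factor needed for the thyroid bud to grow, was next in level. It lies at chr10:92689951-92695646 on the plus strand. It had 848, 1084 and 1193 counts with DMSO and 1326, 1437 and 1473 counts with erianin, which is 38.6, 37.3 and 39.0 TPM against 48.0, 50.3 and 52.9 TPM. Every erianin library was above every DMSO library on both the TPM and the CPM scale, although the gap in CPM was small, from 38.3 in DMSO replicate 3 to 38.8 in erianin replicate 1. The groups did not overlap in CPM for 38.7% of all tested genes. The log2 fold change was 0.20 (SE 0.09, 95% interval -0.02 to 0.41), and it did not pass the test (edgeR adjusted p = 0.189). Without DMSO replicate 3 it was 0.25 with an adjusted p of 0.00177 (edgeR), still under the fold threshold. In the limma fit on log2(TPM + 1) it was 0.39 with an adjusted p of 0.0143, beside the shift of 0.18 in the median of all genes.

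FOXE1, the forkhead factor that drives migration of the thyroid bud, was present at a low level (chr9:97853254-97856715, plus strand). The DMSO libraries had 26, 44 and 71 counts, or 1.86, 2.38 and 3.65 TPM, and the erianin libraries had 51, 59 and 58 counts, or 2.91, 3.25 and 3.27 TPM. The erianin values lay inside the range of the DMSO values, whose highest member was DMSO replicate 3. The log2 fold change was 0.03 with a 95% interval from -0.65 to 0.71 (edgeR adjusted p = 0.963). Without DMSO replicate 3 the value was 0.39 (edgeR adjusted p = 0.246), and without DMSO replicate 1 it was -0.17.

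NKX2-1, the homeobox factor that thyroid shares with lung, was listed at 0 counts in all 6 libraries (chr14:36516392-36521149, minus strand). The antisense gene NKX2-1-AS1, which shares 402 exon bases with it, was also listed at 0, and the neighbouring SFTA3 had 0.0217 TPM in DMSO replicate 2 and 0 elsewhere. A count of 0 allows up to 3 counts, which is 0.0880 to 0.116 CPM per library; intervals and limits of this kind cover counting error only. A listing at 0 has a further limit in this table, because genes used by every cell, SEPTIN2, SEPTIN7, SEPTIN9, H2AZ1 and MARCHF5 among them, were listed at 0 in all libraries too. The zeros of NKX2-1 and TSHR are therefore given as listed and not as absence.

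**Figure D2:**
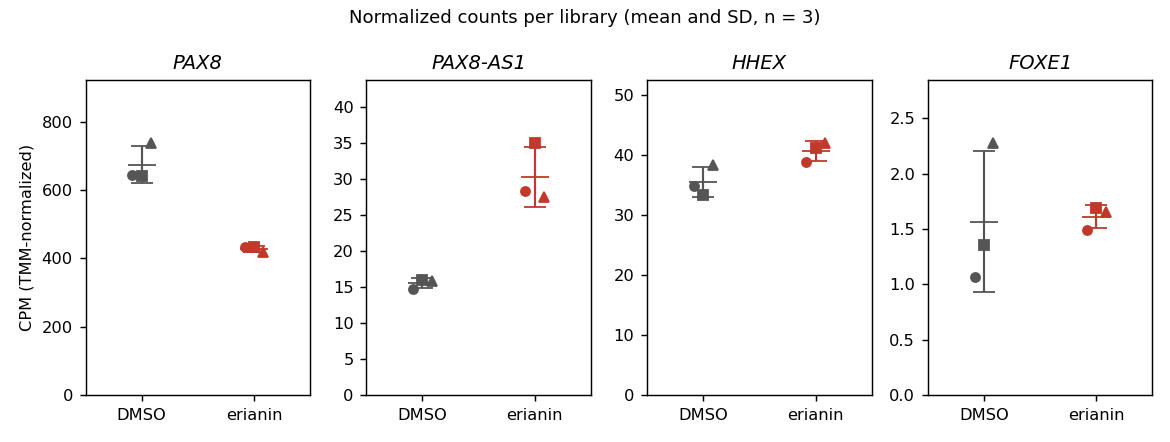
TMM-normalized CPM of PAX8, PAX8-AS1, HHEX and FOXE1 in each library, with circles, squares and triangles for replicates 1, 2 and 3 and bars for the mean and SD of 3 libraries. PAX8 falls from a mean of 676 to 428 CPM and PAX8-AS1 rises from 15.5 to 30.3 CPM without overlap of the groups, while the FOXE1 groups overlap.

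The ratio of 2 genes within a library needs no scaling between libraries, so it was computed for PAX8. PAX8 had 18.5, 19.2 and 19.3 counts per HHEX count in the DMSO libraries and 11.1, 10.5 and 9.97 in the erianin libraries. Here DMSO replicate 3 lay with the other DMSO libraries, and the 2 groups were far apart relative to their SDs of 0.433 and 0.591. PAX8 counts per FOXE1 count were 604, 474 and 324 with DMSO and 290, 256 and 253 with erianin, also without overlap but with a wide spread in DMSO. For these ratios and for PAX8 per PAX8-AS1, described with the PAX8 locus, the two-sided exact permutation test gave p = 0.1, before and after adjustment over the 3 ratios, which is the smallest value that 3 libraries against 3 allow.

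TSHR, the receptor through which TSH acts, was listed at 0 counts in all 6 libraries (chr14:80954989-81146302, plus strand). The receptors FSHR and LHCGR, of the same glycoprotein hormone family, were listed at 0 as well. No fold change can be given for TSHR.

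SLC5A5, the sodium/iodide symporter on which radioiodine uptake depends, lies at chr19:17871973-17895174 on the plus strand. It had 0, 2 and 0 counts with DMSO and 0, 6 and 4 counts with erianin. In each group at least 1 library had no count, and the groups overlapped. The summed counts, 2 against 10, give a ratio of 4.50 relative to library totals, with a 95% interval from 0.958 to 42.2 by counting error alone, which includes 1. SLC5A6, the multivitamin transporter of the same family, was measured at 7.02 to 11.6 TPM (log2 fold change 0.03, edgeR adjusted p = 0.922; -0.13 and 0.119 without DMSO replicate 3), and SLC5A8 had 0.0448 TPM in DMSO replicate 2 and 0 elsewhere.

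TG, the thyroglobulin gene on chromosome 8, had 0, 0 and 4 counts with DMSO and 13, 2 and 0 counts with erianin. Erianin replicate 1 held most of the counts, and erianin replicate 3 held none. The summed counts of 4 and 15 give a ratio of 3.37 (95% interval 1.07 to 14.0, counting error only), which rests on that 1 library and carries no replicate error. In the normal gland TG is among the most abundant transcripts, whereas here its highest value in any library was 0.0856 TPM.

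DUOX2, the oxidase that supplies hydrogen peroxide for iodination, lies at chr15:45092650-45114344 on the minus strand. It had 29, 50 and 36 counts with DMSO and 38, 61 and 36 counts with erianin, or 0.351, 0.458 and 0.313 TPM against 0.367, 0.568 and 0.344 TPM. The groups overlapped fully, with replicate 2 the highest of each. The log2 fold change was -0.01 with a 95% interval from -0.65 to 0.64 (edgeR adjusted p = 0.995). Its close relative DUOX1, which lies beside it and makes the same product, had the higher level at 1.59 to 2.04 TPM and a log2 fold change of -0.05 (edgeR adjusted p = 0.838). Of the maturation factors, DUOXA1 had means of 0.816 and 0.851 TPM (edgeR adjusted p = 0.724), and DUOXA2, which shares 24 exon bases with DUOX2, had 4, 7 and 8 counts against 20, 6 and 12 and was not tested.

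DIO2, the deiodinase that activates T4, had 1 count in erianin replicate 3 and none in the other 5 libraries (chr14:80197527-80387757, minus strand). Its antisense gene DIO2-AS1 was listed at 0. DIO1, the other activating deiodinase, lay at or below 0.0769 TPM, and DIO3, which inactivates the hormone, was listed at 0.

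In order of mean level in DMSO the 9 genes ran PAX8, HHEX, FOXE1, DUOX2, SLC5A5 and TG, followed by DIO2, NKX2-1 and TSHR at 0. The order of the first 4 was the same in all 6 libraries, and their values did not overlap between neighbours. SLC5A5, TG and DIO2 could not be ranked, since each had at least 1 library of either group at 0. The TPM of all 9 together summed to between 183 and 193 in the DMSO libraries and to between 158 and 161 in the erianin libraries, of which PAX8 made up most.

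The genes whose log2 CPM ran most like that of PAX8 over the 6 libraries were ERGIC1, a protein of the transport between endoplasmic reticulum and Golgi, ECE1, the endothelin-converting enzyme, and ARHGAP31, a GTPase-activating protein. Pearson's r was 0.999 for each. These values describe 6 points that fall into the 2 treatment groups, and all 3 genes were lower with erianin, by log2 fold changes of -0.39, -0.70 and -0.72.

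PAX8-AS1 is a noncoding gene on the opposite strand of the PAX8 locus (chr2:113211522-113276581, plus strand). It had 359, 518 and 493 counts with DMSO and 967, 1224 and 961 counts with erianin, which is 2.36, 2.57 and 2.33 TPM against 5.06, 6.19 and 4.98 TPM. All erianin libraries were higher than all DMSO libraries. The log2 fold change was 0.96 (SE 0.12, edgeR adjusted p = 0.00463), and it was a DEG. PAX8 and PAX8-AS1 thus moved in opposite directions, and PAX8 counts per PAX8-AS1 count went from 43.7, 40.3 and 46.7 to 15.3, 12.4 and 15.3. The 2 genes share 685 exon bases, 9.26% of the exon bases of PAX8 and 3.97% of those of PAX8-AS1. A strand setting for the counting is not given in the sources used here, so reads from the shared bases cannot be told apart.

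A RefSeq start of PAX8-AS1 falls inside PAX8. The window around it, chr2:113235277-113235576 on the plus strand of GRCh38.p14, is shown because it holds bases of both genes. The capitals mark the 232 of its 300 bases that lie on PAX8 exons, read here on the strand opposite to PAX8.
PAX8-AS1: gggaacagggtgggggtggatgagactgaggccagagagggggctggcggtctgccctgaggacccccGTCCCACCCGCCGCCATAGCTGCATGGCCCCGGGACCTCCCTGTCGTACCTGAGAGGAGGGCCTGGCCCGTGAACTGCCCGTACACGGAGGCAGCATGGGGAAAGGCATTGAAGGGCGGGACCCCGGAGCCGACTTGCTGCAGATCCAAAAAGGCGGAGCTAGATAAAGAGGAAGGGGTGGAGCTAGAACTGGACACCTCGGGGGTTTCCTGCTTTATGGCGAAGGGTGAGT

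**Figure D3:**
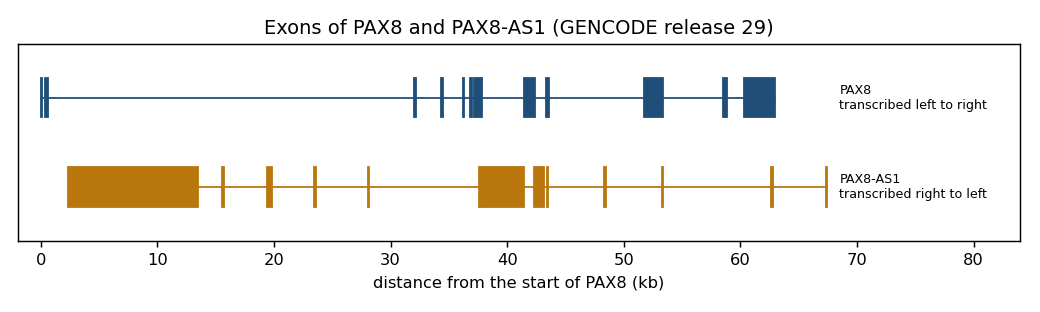
Exons of PAX8 (blue) and PAX8-AS1 (orange) in GENCODE release 29, as distance in kb from the start of PAX8. The 2 genes run in opposite directions over most of the same stretch and share 685 exon bases.

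Among other paired-box, NKX2 and FOXE genes related to the members, NKX2-5, known as a heart factor, was the most abundant at 9.77, 9.71 and 5.60 TPM with DMSO and 9.66, 9.87 and 10.5 TPM with erianin. The lowest value was that of DMSO replicate 3, and the groups overlapped (log2 fold change 0.08, edgeR adjusted p = 0.826). Without that library the log2 fold change was -0.12 (edgeR adjusted p = 0.443). PAX2 and PAX5 stayed at or below 0.0703 TPM, NKX2-3 at or below 0.191 TPM, and NKX2-2 and FOXE3 were listed at 0. Of 13 relatives, 3 were tested and none was a DEG, beside 8.73% of all tested genes.

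A list of 10 further regulators of thyroid and pharyngeal development was compared. Of these, 8 were tested, 1 rose, 1 fell and 6 did not pass the thresholds, with a median log2 fold change of 0.28 against 0.0014 over all tested genes. The shares of DEGs among all tested genes, 5.37% higher and 3.36% lower, stand as the background of this and the following lists. ISL1, a homeobox factor of the foregut mesoderm and thyroid bud, rose from 0.746, 0.966 and 0.689 TPM to 2.89, 2.83 and 3.70 TPM (log2 fold change 1.76, SE 0.23, edgeR adjusted p = 0.00489). TBX1, the T-box factor of the pharynx, fell from 20.8, 22.0 and 22.4 TPM to 14.1, 11.9 and 15.4 TPM (log2 fold change -0.86, SE 0.12, edgeR adjusted p = 0.00664). Neither gene's groups overlapped, and both remained DEGs when any 1 library was left out. SOX9 was at 3.71 ± 0.265 and 5.51 ± 0.507 TPM and GLIS3 at 1.08 ± 0.134 and 1.55 ± 0.222 TPM (SD, n = 3), and neither passed the test (edgeR adjusted p = 0.118 and 0.252). Without DMSO replicate 3 their log2 fold changes were 0.42 and 0.44 with edgeR adjusted p-values of 0.0135 and 0.0111, still under the fold threshold.

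The apparatus of hormone synthesis beyond the 9 genes was a list of 17, of which 8 were tested. Of these 1 rose, none fell and 7 did not pass (background 5.37% and 3.36%), with a median of 0.09. Highest in level were CTSB, CTSD and CTSL, cathepsins that digest thyroglobulin in the gland as CTSK does, and GPX3, a secreted glutathione peroxidase. CTSK rose from 3.37, 2.80 and 3.57 TPM to 6.30, 5.44 and 7.30 TPM (log2 fold change 0.76, SE 0.20, edgeR adjusted p = 0.0441), but the call was lost when any 1 library other than DMSO replicate 3 was left out, where the adjusted p reached 0.182. CTSB had a log2 fold change of -0.25, CTSD 0.26, CTSL -0.08 and GPX3 0.22, all short of the test (edgeR adjusted p between 0.0894 and 0.533). DMSO replicate 3 had the lowest TPM of these 4 genes in DMSO. Without it CTSB was at -0.33 (edgeR adjusted p = 1.21e-08) and GPX3 at 0.17 (edgeR adjusted p = 0.00600), both under the fold threshold, and CTSD was at 0.08.

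The 9 untested genes of that list include those most particular to the gland. SLC26A4 (pendrin, which passes iodide into the follicle) was singled out after its values were seen. It had 4, 0 and 2 counts with DMSO and 12, 8 and 9 with erianin, a ratio of 4.35 relative to library totals (95% interval 1.77 to 12.8, counting error only). Every erianin library had more counts than every DMSO library, although the highest level was 0.147 TPM. This was not particular to SLC26A4. In the same list KCNE2, SLC26A7 and LRP2, also picked after their values were seen, had summed counts of 1, 0 and 2 with DMSO and 21, 15 and 23 with erianin. SLC5A8 went the other way with 1 and 0. Outside the list PAX5 had summed counts of 4 and 20, and PAX2 had 14 and 16. IYD, the enzyme that recovers iodide, was listed at 0.

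The lower arm of TSH receptor signaling was mostly measurable, unlike the receptor itself: 16 of 17 genes were tested, 1 rose, none fell and 15 did not pass (background 5.37% and 3.36%), with a median of -0.04. GNAS, the stimulatory G protein that couples TSHR to adenylyl cyclase, was the most abundant at 136.8, 139.6 and 132.6 TPM with DMSO and 121, 121 and 119 TPM with erianin. Its groups did not overlap, and its log2 fold change of -0.38 passed on the adjusted p (0.0125, edgeR) but not on the fold threshold. The same held for the adenylyl cyclases ADCY3 (-0.50) and ADCY9 (-0.37) and for the arrestin ARRB2 (-0.34), with edgeR adjusted p-values of 0.0108, 0.0295 and 0.0172, so 4 of 16 were lower by adjusted p alone, against 7.69% of all tested genes. ADCY9 was named after its value was seen. Among the other abundant genes GNA11 had a log2 fold change of -0.21 and PRKACA of -0.03 (edgeR adjusted p = 0.283 and 0.835). Without DMSO replicate 3 they were at -0.34 and 0.04 (edgeR adjusted p = 1.95e-07 and 0.456), and ADCY3 became a DEG at -0.55. The DEG was PDE4D, a cAMP phosphodiesterase, at 0.782, 0.798 and 0.836 TPM with DMSO and 1.51, 1.24 and 1.22 TPM with erianin (log2 fold change 0.52, SE 0.13, edgeR adjusted p = 0.0406). It was barely past the fold threshold, and the call was lost when any 1 library other than DMSO replicate 3 was left out, where the adjusted p reached 0.166.

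Hormone metabolism and action, from the deiodinases to the nuclear receptors and their partners, was a list of 21 genes, of which 15 were tested. Of these 1 rose, none fell and 14 did not pass (background 5.37% and 3.36%), with a median of -0.03. CRYM, a cytosolic protein that binds T3, rose from 0.985, 0.786 and 0.334 TPM to 1.98, 1.98 and 1.94 TPM (log2 fold change 1.33, SE 0.32, edgeR adjusted p = 0.0307). The lowest DMSO value was that of replicate 3. Without it the log2 fold change was 1.01 (edgeR adjusted p = 0.000773), and the call was lost without DMSO replicate 2 or without any erianin library, where the adjusted p reached 0.117. The retinoid receptors RXRA and RXRB, partners of the thyroid hormone receptors, had log2 fold changes of -0.06 and -0.02, and RXRB was at 42.7 TPM in DMSO replicate 3 against 78.6 to 88.3 TPM in the other 5 libraries. Without that library they were at -0.24 and -0.27 (edgeR adjusted p = 0.00014 and 7.17e-06). MARCHF6, the ligase that degrades DIO2, belongs to the genes listed at 0 throughout.

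The thyroid differentiation score, a published set of 16 thyroid genes that includes 8 of the 9 described here, all but HHEX, was also read gene by gene. Of its 6 tested genes PAX8 was the 1 DEG, and the median log2 fold change was -0.03. The summed TPM of the 16 genes ran from 160.6 to 167 with DMSO and from 125 to 127 with erianin, and PAX8 contributed most of it in every library. THRA, the thyroid hormone receptor alpha gene, was the next in level at 11.0 to 14.5 TPM (log2 fold change -0.15, edgeR adjusted p = 0.340; -0.22 and 0.00446 without DMSO replicate 3).

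Some markers of other cell types were higher with erianin and others were not. SYP, a synaptic vesicle protein on the list of C cell markers, rose from 0.690, 0.386 and 0.294 TPM to 2.73, 2.28 and 1.91 TPM (log2 fold change 2.18, edgeR adjusted p = 0.00602). It was the 1 DEG among the tested markers, which were 4 epithelial, 2 C cell, 1 fibroblast and 2 endothelial genes. Of all tested genes 8.73% were DEGs. Of the epithelial genes, KRT8 had a log2 fold change of 0.01 (edgeR adjusted p = 0.967), and -0.11 without DMSO replicate 3 (edgeR adjusted p = 0.0263). EPCAM had 0.26 (edgeR adjusted p = 0.132), and 0.33 without that library (edgeR adjusted p = 0.000912). Both stayed under the fold threshold. CALCB, also on that list, had 11, 10 and 0 counts with DMSO and 15, 20 and 29 with erianin (log2 fold change 1.33, edgeR adjusted p = 0.260), CALCA was listed at 0, CHGA reached 0.0569 TPM in 1 library and SCG3 0.0598 TPM in 1. The summed C cell markers ran from 0.294 to 1.19 TPM with DMSO and from 3.02 to 3.27 TPM with erianin. The endothelial markers summed to 0.172 to 0.212 TPM with DMSO and to 0.449 to 0.620 TPM with erianin, with VWF at 2, 6 and 4 counts against 10, 17 and 14 (log2 fold change 1.51, edgeR adjusted p = 0.0621) and KDR at 6, 4 and 14 counts against 28, 22 and 14 (1.16, edgeR adjusted p = 0.162; without DMSO replicate 3 1.77 and 0.0102, a DEG). PECAM1 had 0, 2 and 1 counts against 10, 1 and 9, and CDH5 did not rise, with 4, 2 and 2 against 3, 0 and 4. CALCB, VWF and KDR passed the count filter only through the counts of their erianin libraries. Their higher counts there were thus a condition of being tested, and CDH5, low in both groups, was not tested. The leukocyte markers summed to 0.174 to 0.290 TPM with DMSO and to 0.0763 to 0.269 TPM with erianin. COL1A1 of the fibroblast list had a log2 fold change of -0.32 (edgeR adjusted p = 0.0613). Without DMSO replicate 3 it was at -0.30 (edgeR adjusted p = 0.000785), under the fold threshold. The part of these markers in the changes of PAX8 and ISL1 was not tested. In bulk RNA, fewer cells that express a gene and less RNA per cell cannot be told apart.

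**Figure D4:**
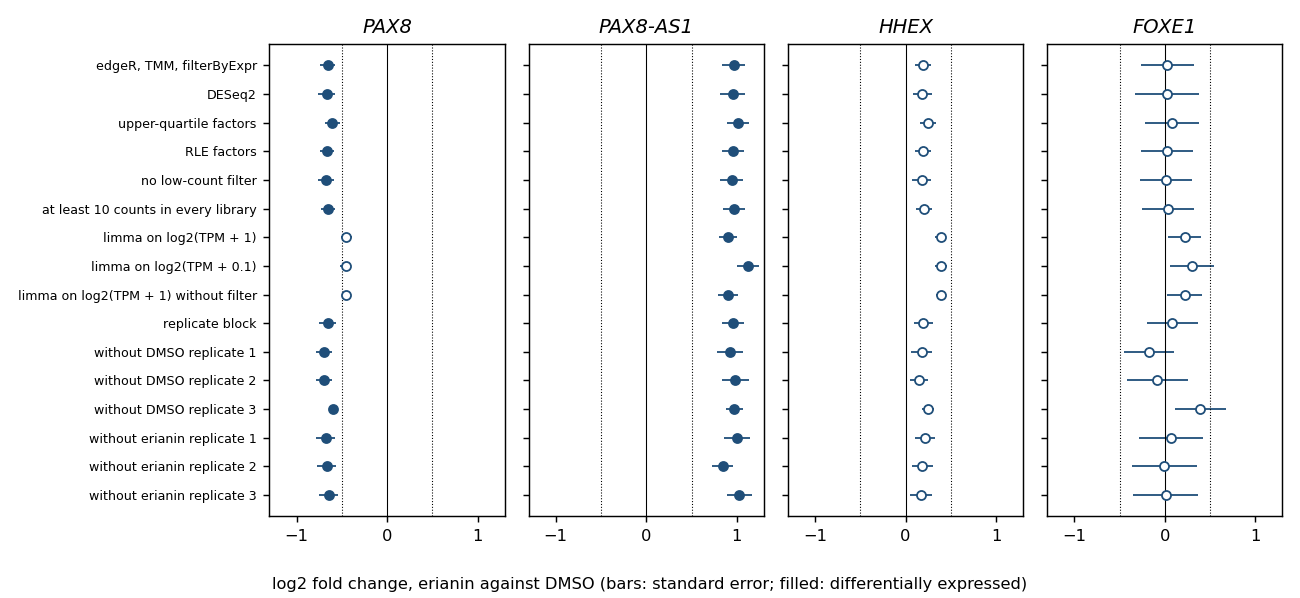
Log2 fold change (erianin against DMSO) with its standard error for PAX8, PAX8-AS1, HHEX and FOXE1 under each tool, scaling, filter and left-out library, filled where the gene is a DEG. PAX8 lies below 0 in all of them and within the 0.5 threshold in the 3 fits on TPM, PAX8-AS1 lies between 0.84 and 1.12, and FOXE1 crosses 0.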

How the data were processed

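Unnormalized counts of reads on each gene, and TPM values for the same 6 libraries, were deposited by the authors; the submitters' notes name GRCh38/hg38, fastp 0.23.2, STAR 2.7.10, featureCounts 2.0.1 and StringTie 2.2.1. The annotation release and the strand setting are not given in the sources used here. The paper names the BGISEQ-500 platform and the labels an Illumina library protocol. The count table has 65807 rows, of which 26480 without an identifier hold 0.00385% to 0.00515% of the counts and were left out. Of 39168 identifiers, 38259 matched a symbol.

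Counts were tested with edgeR 4.0.16 (TMM, filterByExpr, glmQLFit, glmQLFTest, group as the only term) in R 4.3.3 over all 12821 genes that passed the filter, with adjusted p under 0.05 and absolute log2 fold change over 0.5 for DEGs. Single-gene ratios of low counts have exact binomial intervals at 95%. Coordinates came from GENCODE release 29, promoter windows from RefSeq. On simulated counts edgeR recovered 200 of 200 genes changed 2-fold, with 2 unchanged genes called over 12790. The simulation changed only well-counted genes, had less spread between libraries than these data and held no library that stood apart. It therefore does not measure recovery for genes with few counts or for smaller changes.

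Other settings tried were DESeq2 1.42.0, RLE and upper-quartile factors, other count filters, limma 3.58.1 on log2(TPM + 1) and log2(TPM + 0.1), a replicate block, each library left out, and other fold thresholds. The 9 genes and all lists were chosen with earlier results of these data known. Named were all 9 genes, in each list the DEGs and up to 5 genes by mean TPM, all relatives and neighbours, and the 3 genes most correlated with PAX8. Some genes of the lists are counted but not reported by name here.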

Additional observations from a re-analysis of the deposited data

How the results depend on the processing

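PAX8 was lower with erianin under every alternative tried. It stayed a DEG under DESeq2, both other scalings, both other count filters, the replicate block (-0.65, edgeR adjusted p = 0.0252) and each library left out (-0.70 to -0.59), and lost the call on fold size in the limma fits on TPM (-0.45, -0.46 and, without a filter, -0.45, adjusted p = 0.00846, 0.00893 and 0.00802) and at a threshold of 1 (-0.66). In those TPM fits the median of all genes was shifted by 0.18, 0.20 and 0.12, and no PAX8 call means 0 DEGs among the 9 genes and 0 in the differentiation score, as at a threshold of 1. HHEX stayed between 0.15 and 0.25 with each library left out. FOXE1 and DUOX2, at values near 0, changed sign: FOXE1 ran from -0.17 to 0.39 with each library left out, with -0.17, -0.08 and -0.01 without DMSO replicate 1, DMSO replicate 2 and erianin replicate 2, and DUOX2 from -0.28 to 0.14, with 0.047 under upper-quartile factors, 0.0033 where each library had to reach 10 counts and 0.052 on TPM without a filter.

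The counts of DEGs in the other lists were small and moved. The developmental regulators kept 2 or 3 except 1 at a threshold of 1. The synthesis apparatus had 1, against 2 with DESeq2, 2 on TPM without a filter, 0 without a count filter, 0 at a threshold of 1 and 0 to 1 with each library left out. TSH receptor signaling had 1, against 2 with DESeq2 and RLE factors, 0 on TPM, 5 without a fold threshold, 0 at a threshold of 1 and 0 to 2 with each library left out. Metabolism and action had 1, against 3 on TPM, 3 without a fold threshold and 0 to 2 with each library left out. With the replicate block these 3 lists had 0. The cause of these moves was not tested. Replicate numbers gave no pairing: same-numbered deviations correlated at 0.0014, 0.025 and -0.033, and the block moved the DEGs over all genes from 1119 to 665. Of the 9 genes, 4 were tested also with the minimum of 10 counts, and 4 in place of 3 counted as detected at a mean of 0.1 TPM or at 10 counts in every DMSO library. All genes gave 309 to 2282 DEGs with each library left out, the highest without DMSO replicate 3, where the share was 17.5%. Scaling by upper-quartile factors gave 822 higher and 299 lower against 688 and 431, and limma on log2(TPM + 1) gave 1098 and 94. TG, SLC5A5 and DIO2, below the count filter, were fitted in the 3 settings without a filter, where no unadjusted p was under 0.163 and none was a DEG.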
